A study of Homo sapiens with 120 samples.

Results

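Material D is a cerium dioxide powder from the vendor Alfa Aesar, and its highest dose is described here against untreated cells. The members are arrays chosen by their titles: the 5 arrays of material D at 30 µg/mL (D 30) and the 8 arrays of untreated cultures (control), which make 13 of the 120 arrays in the series. The series exposed HepG2 cells, an established human line from a hepatocellular carcinoma obtained from ATCC, to titanium dioxide and cerium dioxide nanomaterials of several vendors. Cells at passage 10 to 20 were plated 48 h ahead, kept for 72 h with the particles in culture medium or untreated, and their total RNA, with integrity numbers of 9.8 to 10, was read on Illumina HT-12 v4 bead arrays. The groups used beside D 30 were D at 3 µg/mL (D 3, 5 arrays), D at 0.3 µg/mL (D 0.3, 4 arrays), 2 further cerium dioxide materials of Alfa Aesar at 30 µg/mL, C (C 30, 5 arrays) and L (L 30, 5 arrays), and the controls. For the levels of 3 genes 2 titanium dioxide groups at 30 µg/mL for 72 h are also given, A from Degussa (A 30, 5 arrays) and H from Mknano (H 30, 5 arrays). Each array came from a flask that the series text calls a biological replicate, all flasks hold the same cell line, and no particle-free vehicle is named for the controls. The labels do not say how powder D differs from C and L.

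Levels are log2 of the deposited probe intensity, which has the same median on every array, so a change is measured against the rest of the same array. A gene is given by its brightest probe, 20046 genes were tested, and a gene passed where limma's adjusted p was under 0.05. Changes are D 30 minus control on the log2 scale, ± the standard error of the fit, with 5 arrays against 8 unless another n is given, and the number of arrays limits their precision.

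Cerium dioxide particles can switch between an oxidised and a reduced surface state and so act as scavengers or as sources of reactive oxygen. Particles enter liver cells by endocytosis and collect in lysosomes, and cells that meet reactive oxygen or metal ions usually induce targets of the transcription factor NRF2, metallothioneins and heat shock genes. HepG2 cells secrete most plasma proteins of the liver and divide in culture, so liver products and cell cycle genes are both measurable in them.

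The 13 arrays carried the levels of a hepatocyte line. The 10 measured hepatocyte products lay between 10.84 for TTR in controls and 14.02 for ALB in controls, and their mean was 12.82 to 12.89 on the D 30 arrays, against 12.79 to 13.01 on the control arrays. Fibroblast, endothelial and leukocyte markers, 7 measured of each, had mean levels of 6.52 to 6.95 on D 30 arrays and 6.51 to 7.05 on control arrays, around the median level of all genes of 6.71. Among them CD68 was at 8.37 in D 30 and 8.57 in control, where a second probe ran the other way (0.32 ± 0.11), while PTPRC, the defining leukocyte marker, was at 6.56 in both groups. Of the 119 arrays with a group, 9 stood apart on the first principal component, none of them D 30 or control. Among the 9 were L 30 replicate 1, A 30 replicate 3 and H 30 replicates 1 and 2. On the second component D 30 lay at -5.54 to -1.99 and controls 1 to 7 at -10.19 to -5.26, whereas control 8 lay at 11.75. The root mean square log2 difference had a median of 0.165 between a D 30 and a control array, 0.125 between 2 D 30 arrays and 0.186 between 2 controls, so the median distance between D 30 and control arrays was below that among controls.

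In D 30, 3 genes rose and 0 fell against control, which is 0.015% of the genes tested. They were CCDC9B, which encodes a coiled-coil protein, ZNF526, which encodes a zinc finger protein, and PRRG4, which encodes a membrane protein with a Gla domain of the kind that vitamin K dependent clotting factors carry. Without adjustment 593 genes were higher and 347 lower at p under 0.05, and the median change of all genes was -0.001. The 250 bases before the annotated start of each of the 3 genes are shown, from RefSeq (build GRCh38.p14), because these genes carried the difference. Capitals mark CCAAT on either strand, ATTGG being its reverse, and TTTGAA or TGACNNNGC would have been capitals too.
CCDC9B, chr15:40340940-40341189, minus strand: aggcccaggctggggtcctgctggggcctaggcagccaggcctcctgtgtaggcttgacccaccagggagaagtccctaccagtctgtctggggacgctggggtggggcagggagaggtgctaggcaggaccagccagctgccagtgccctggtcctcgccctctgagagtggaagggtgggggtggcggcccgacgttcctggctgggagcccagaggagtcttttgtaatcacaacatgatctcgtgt
ZNF526, chr19:42220062-42220311, plus strand: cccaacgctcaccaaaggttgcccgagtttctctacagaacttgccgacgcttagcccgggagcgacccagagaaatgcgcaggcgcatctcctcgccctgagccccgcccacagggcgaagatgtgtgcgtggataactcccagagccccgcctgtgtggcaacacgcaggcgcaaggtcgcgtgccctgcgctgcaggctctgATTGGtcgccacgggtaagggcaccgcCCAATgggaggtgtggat
PRRG4, chr11:32829677-32829926, plus strand: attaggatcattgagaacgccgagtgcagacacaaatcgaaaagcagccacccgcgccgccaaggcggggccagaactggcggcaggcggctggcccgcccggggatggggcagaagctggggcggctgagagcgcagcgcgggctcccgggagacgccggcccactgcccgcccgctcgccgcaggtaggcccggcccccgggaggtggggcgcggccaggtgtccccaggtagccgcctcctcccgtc
CCAAT was found before ZNF526, 18 and 45 bases ahead of its start, and before neither of the other 2 genes. TTTGAA, an element of late cell cycle promoters, and TGACNNNGC, the core of the antioxidant response element, were found before none of the 3. Among the first listed starts of 27305 genes, 33% held CCAAT, 13.6% held TTTGAA and 11% held TGACNNNGC in the same window.

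CCDC9B (chromosome 15, probe ILMN_1775330) was at 8.07, 8.15, 8.04, 7.98 and 8.32 on the D 30 arrays, against 7.75, 7.78, 7.67, 7.68, 7.82, 7.44, 7.40 and 7.58 on the control arrays. Every D 30 array lay above every control, as they did for 0.259% of all genes, while all D 30 arrays lay below all controls for 0.0848%. The change was 0.47 ± 0.07 (1.39-fold, adjusted p = 2.95e-05). ZNF526 (chromosome 19, probe ILMN_1756631) was at 7.68, 7.67, 7.72, 7.56 and 7.95 in D 30, against 7.33, 7.64, 7.40, 7.35, 7.45, 7.27, 7.42 and 7.42 in control. Only control 2 reached into the D 30 range, and the change was 0.31 ± 0.06 (adjusted p = 0.00281). PRRG4 (chromosome 11, probe ILMN_2219437) was at 7.30, 7.46, 7.08, 7.18 and 7.58 in D 30, against 6.96, 6.93, 6.85, 7.04, 6.99, 7.18, 6.93 and 6.94 in control. D 30 replicates 3 and 4 overlapped with control 6, and the change was 0.34 ± 0.07 (adjusted p = 0.0309). A second, dimmer probe of PRRG4 changed by 0.01 ± 0.03. Without D 30 replicate 5, the highest D 30 array for all 3 genes, 1 gene passed, which was CCDC9B. Without D 30 replicate 3, 29 genes rose and 1 fell, and without control 8, 4 rose and 1 fell. When each of the 13 arrays was left out in turn, CCDC9B passed in 13 of 13 fits, ZNF526 in 12 and PRRG4 in 5 (lost without D 30 replicate 1, 2 or 5 or control 1, 2, 3, 5 or 7), and none of the 3 passed in a fit on these 13 arrays alone, where CENATAC and SPDYE8 did.

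**Figure D1:**
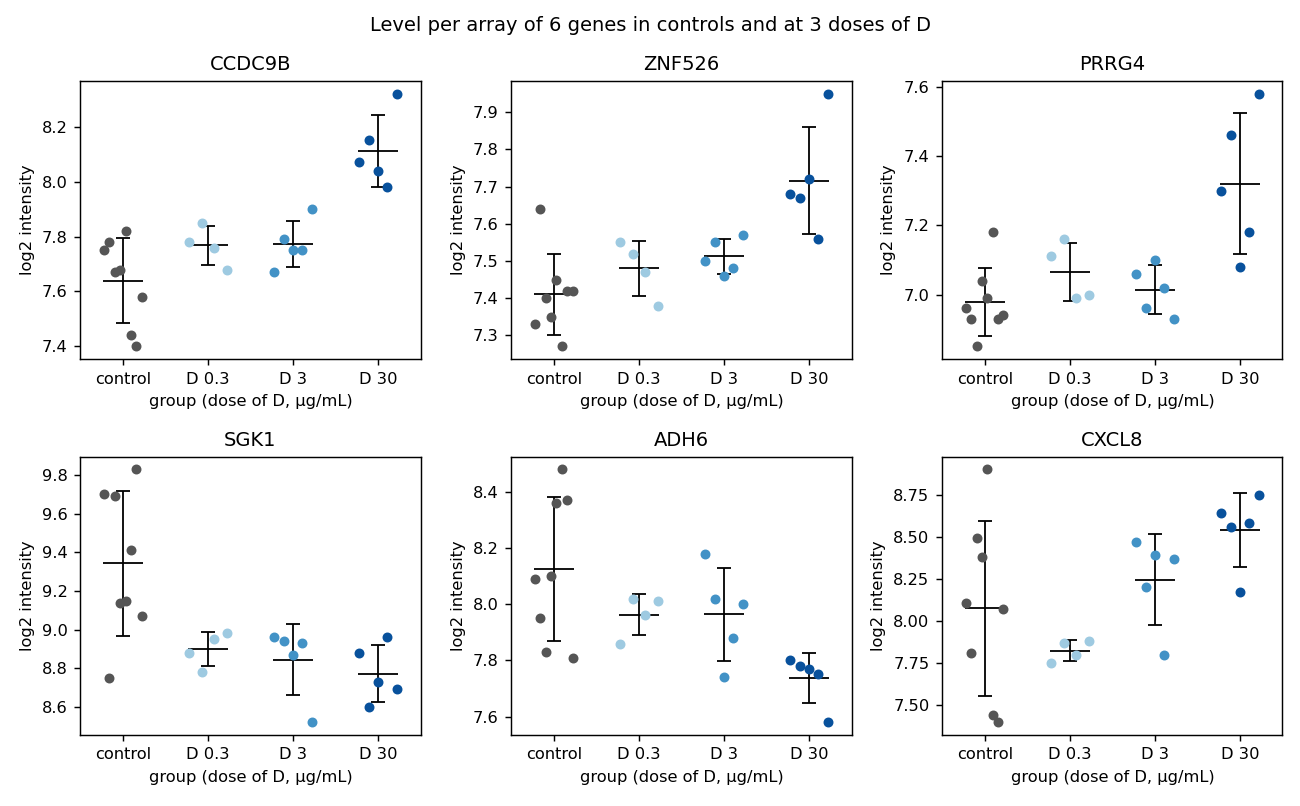
Log2 intensity per array of CCDC9B, ZNF526, PRRG4, SGK1, ADH6 and CXCL8 in controls (8 arrays) and in D at 0.3 (4), 3 (5) and 30 µg/mL (5); points are arrays, the black line is the mean and the bars are ± 1 SD, and each panel has its own log2 axis. CCDC9B averaged 7.64 in control, 7.77 in D 0.3, 7.77 in D 3 and 8.11 in D 30, whereas SGK1 averaged 9.34, 8.90, 8.84 and 8.77.

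Along the dose series CCDC9B averaged 7.64 ± 0.16 (SD) in control, 7.77 ± 0.07 at 0.3, 7.77 ± 0.09 at 3 and 8.11 ± 0.13 at 30 µg/mL. ZNF526 averaged 7.41 ± 0.11, 7.48 ± 0.07, 7.51 ± 0.05 and 7.72 ± 0.14 in the same order. PRRG4 averaged 6.98 ± 0.10, 7.06 ± 0.08, 7.01 ± 0.07 and 7.32 ± 0.20. For all 3 genes the lower doses lay within or close to the range of the controls and the step came at the highest dose, but none of them passed when D 30 was set against D 3 or D 0.3 directly. Over all 25 groups of the series D 30 had the highest mean of each of the 3 genes, as a description, since they were chosen for being high there. The next group was A 30, at 7.90 ± 0.07 for CCDC9B and 7.66 ± 0.13 for ZNF526, and H 30, at 7.25 ± 0.27 for PRRG4. For all 3 genes the arrays of these neighbours overlapped with D 30, for CCDC9B only narrowly, with A 30 up to 7.99 and D 30 from 7.98. The differences between these groups and D 30 were not tested. A 30 replicate 3 and H 30 replicates 1 and 2 are arrays that stand apart.

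Next in order of p among the rises came SDHAP2, a pseudogene of a succinate dehydrogenase subunit, and SCARNA18, a small RNA of Cajal bodies, with changes of 0.34 ± 0.07 and 0.36 ± 0.08 (adjusted p = 0.0565 for both). A pseudogene's probe can also read its parent gene. RAB12, a small GTPase of membrane traffic, was at 6.83 to 7.09 in D 30 and 6.64 to 6.80 in control, a change of 0.21 ± 0.05 (adjusted p = 0.0722) that its dimmer probe did not share (-0.13 ± 0.03). ANKRD13D, the retinal homeobox gene RAX2, the protease inhibitor gene SPINT3 and KLHL28 followed with changes of 0.13 to 0.52 and adjusted p of 0.0913 to 0.125. Dimmer probes gave -0.05 ± 0.05 for KLHL28, 0.09 ± 0.04 for RAX2 and -0.02 to 0.01 for ANKRD13D.

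No gene fell past the threshold. ADH6, an alcohol dehydrogenase of liver, was lowest in p among the decreases: it was at 7.80, 7.78, 7.77, 7.75 and 7.58 in D 30, against 8.09, 7.95, 7.83, 8.10, 8.36, 8.48, 8.37 and 7.81 in control. The groups did not overlap, but the gap was 0.01 and the change of -0.39 ± 0.09 had an adjusted p of 0.125. SGK1, a kinase gene switched on by serum and glucocorticoids, was at 8.88, 8.60, 8.73, 8.96 and 8.69 in D 30, against 9.70, 8.75, 9.69, 9.14, 9.15, 9.41, 9.83 and 9.07 in control (-0.57 ± 0.14, adjusted p = 0.125). Control 2 was the only control within the D 30 range, and 2 further probes of SGK1 gave -0.50 ± 0.13 and -0.47 ± 0.10, while a probe near the lowest levels gave 0.00. SGK1 was lower than the control mean at every dose, with changes of -0.45 at 0.3, -0.50 at 3 and -0.57 at 30 µg/mL, and these 3 comparisons share the controls. CES1, the main carboxylesterase of liver, was at 9.68 to 9.87 in D 30 and 9.85 to 10.25 in control (-0.32 ± 0.09, adjusted p = 0.168). The methyl-CpG binding gene MBD2, ALAS2, PPP2R1B, GNG11, CHGB, the Y RNA gene RNY4 and KCND2 followed, with changes of -0.23 to -0.14 and adjusted p of 0.125 to 0.256. Dimmer probes gave -0.03 to 0.02 for MBD2, 0.00 and 0.03 for ALAS2, and -0.01 and 0.05 for PPP2R1B. ALAS2, GNG11 and KCND2 lay below the median level of all genes, and their changes were 0.18 or less in size. GNG11 was at 5.71 in D 30 replicate 4 and 6.48 to 6.56 in the other 4 D 30 arrays, and KCND2 at 5.71 in D 30 replicate 5 and 6.36 to 6.49 in the other 4.

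The 9 arrays that stand apart enter the pooled estimate of spread, although none is D 30 or control. Without them the changes stayed as they were and the median standard error of all genes was 0.0415 in place of 0.046, being smaller for 16700 genes and larger for 3346. In that fit 75 genes rose and 12 fell, 0.434% of the genes tested, among them the 3 genes above. The other genes called there did not pass with all arrays. Which arrays stand apart was read from these data, and the genes named from this fit were chosen after their values were seen. The median change was 0.35 among the rises and -0.29 among the falls, and groups did not overlap for 24 of the rises and 7 of the falls. Over all genes, every D 30 array lay above every control for 0.259% and below every control for 0.0848%. The called genes had been picked by p on the same arrays, so their count without overlap tests nothing. Among the falls were the alcohol dehydrogenase genes ADH6 and ADH4 (-0.43 ± 0.11, adjusted p = 0.0447 without the 9 arrays). They were the only 2 that fell of a list of 32 measured alcohol and aldehyde dehydrogenases and aldo-keto reductases. The falls also held CES1, the sterol synthesis enzyme SQLE (-0.30 ± 0.07, 0.0411) and ECI2 of fatty acid oxidation (-0.26 ± 0.07, 0.0447). With all arrays the standard errors were larger, at 0.27 for ADH4, 0.12 for SQLE and 0.38 for ECI2. None of 31 cytochrome P450 genes, 23 conjugating enzymes and 10 hepatocyte products rose or fell without the 9 arrays. SGK1 (0.000644) and the desmosomal cadherin gene DSC2 (-0.44 ± 0.11, 0.0447) also fell in that fit. Without the 9 arrays, GSTP1, a glutathione transferase, rose by 0.26 ± 0.06 (adjusted p = 0.0243), and SLC4A11, a membrane transporter gene, by 0.44 ± 0.08 (0.000644).

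The larger rises of that fit are given as a mean per array. They were 24 genes with changes of 0.5 or more, led by CCBE1 and ZNF682 (0.86 each), the RNA polymerase subunit gene CRCP (0.82), the RNA helicase gene DDX51 (0.79) and the mitochondrial pyrophosphatase gene PPA2 (0.75), and several, such as SPDYE8 and GOLGA6L6, belong to families of near-identical copies. Their mean level was 9.86, 10.02, 9.55, 9.97 and 10.36 on the D 30 arrays, against 9.09 to 9.61 on the control arrays. D 30 replicate 3 was the lowest and replicate 5 the highest, and control 8 was the highest control, above D 30 replicate 3. In D 3 the mean of these genes ran from 9.11 to 9.77 and in D 0.3 from 9.19 to 9.71, both overlapping with control. In C 30 it ran from 9.16 to 9.49 and in L 30 from 8.88 to 9.42. These genes were picked for their rise in D 30, so the values describe them and test nothing. Leaving out D 30 replicate 3 took the count of rises from all arrays to 29, as given above.

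**Figure D2:**
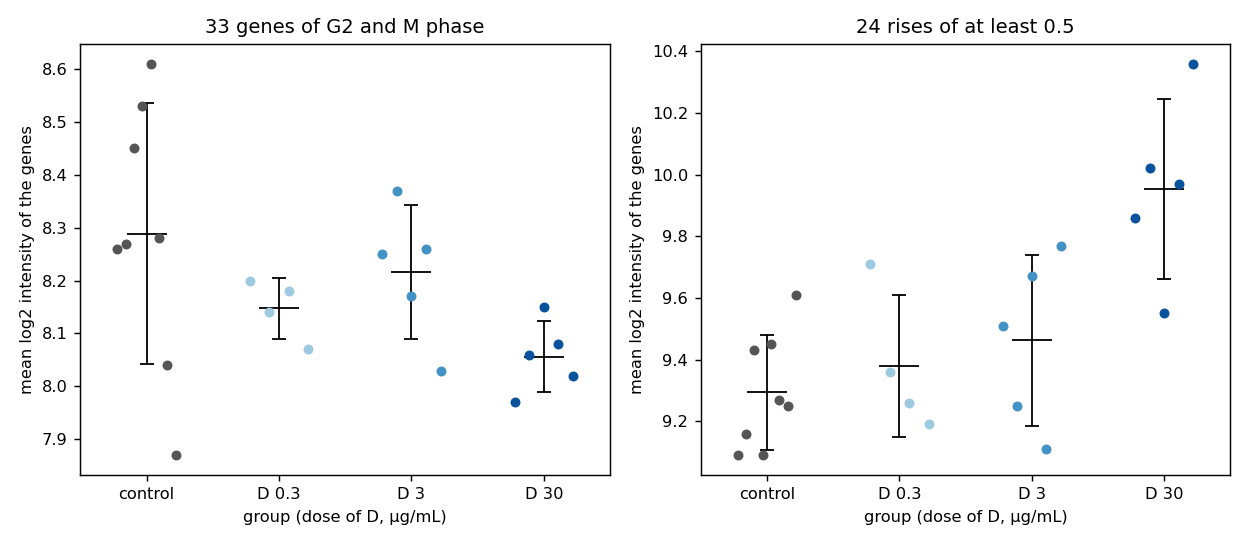
Mean log2 intensity per array of 33 genes of G2 and M phase (left) and of the 24 genes with rises of at least 0.5 in the fit without 9 arrays (right), in controls (8 arrays) and D at 0.3 (4), 3 (5) and 30 µg/mL (5), with the mean and ± 1 SD. The D 30 arrays lay at 7.97 to 8.15 on the left, against 7.87 to 8.61 in control, and at 9.55 to 10.36 on the right, where the genes were chosen for being high in D 30.

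Of 49 lists of genes by pathway, complex or cell type, with 1226 measured genes in all, none had a member past the threshold in D 30 against control. Of all genes 0.015% passed. The median change was under 0.06 in size in 46 of the lists. The largest median in size was that of the list of G2 and M phase, genes that drive and carry out mitosis, with a median change of -0.23 beside -0.001 for all genes. Of its 33 measured members 32 were lower in D 30 and 1 was higher, 0 passed, and 8 were lower at an unadjusted p under 0.05, which 1.73% of all genes were. The list as a whole was not tested. In these cultures fewer dividing cells, less RNA per dividing cell and spread among the controls cannot be told apart. The members share cells and arrays and are not independent of each other.

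The 8 were TOP2A, which untangles DNA (-0.53 ± 0.20, adjusted p = 0.549), HMMR, a spindle protein gene (-0.39 ± 0.15, 0.668), the cyclin gene CCNA2 (-0.44 ± 0.18, 0.768), the spindle genes TPX2 (-0.29 ± 0.12, 0.812), KIF11 (-0.18 ± 0.08, 0.918) and NUSAP1 (-0.25 ± 0.12, 0.994), the phosphatase gene CDC25C (-0.20 ± 0.09, 0.994) and the kinase gene TTK (-0.20 ± 0.10, 1). CDK1 changed by -0.31 ± 0.18, AURKB by -0.38 ± 0.21, PLK1 by -0.29 ± 0.18 and CCNB1 by -0.16 ± 0.13. MKI67, the common marker of cycling cells, changed by 0.00 ± 0.05 on its probe, which at 6.55 in D 30 and 6.56 in control lay below the median level of all genes, and BUB1B by 0.00 ± 0.09. The 31 measured genes of S phase, which copy DNA, had a median of 0.04, with the smallest p for MCM6 (0.20 ± 0.08, adjusted p = 0.636) and the largest change for UHRF1 (0.28 ± 0.15, adjusted p = 1). The promoters of the 3 G2 and M genes of smallest p are shown to set their shared elements side by side (250 bases before the start, RefSeq, GRCh38.p14). Capitals mark TTTGAA and CCAAT, each on either strand (TTCAAA and ATTGG in reverse), and runs that touch or overlap stand as 1 block. TTTGAA is a form of the cell cycle homology region of late cell cycle genes, and other forms were not searched.
TOP2A, chr17:40417897-40418146, minus strand: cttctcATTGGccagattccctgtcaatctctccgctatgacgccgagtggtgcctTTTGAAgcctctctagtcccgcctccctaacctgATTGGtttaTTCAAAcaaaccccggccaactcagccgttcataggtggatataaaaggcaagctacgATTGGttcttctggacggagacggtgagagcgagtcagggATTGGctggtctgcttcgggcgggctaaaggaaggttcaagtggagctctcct
HMMR, chr5:163460382-163460631, plus strand: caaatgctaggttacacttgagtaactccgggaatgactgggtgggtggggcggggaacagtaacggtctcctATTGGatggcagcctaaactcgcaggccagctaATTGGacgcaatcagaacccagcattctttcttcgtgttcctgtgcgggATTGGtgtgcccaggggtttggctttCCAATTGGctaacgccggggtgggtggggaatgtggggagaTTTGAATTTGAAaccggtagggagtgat
CCNA2, chr4:121823884-121824133, minus strand: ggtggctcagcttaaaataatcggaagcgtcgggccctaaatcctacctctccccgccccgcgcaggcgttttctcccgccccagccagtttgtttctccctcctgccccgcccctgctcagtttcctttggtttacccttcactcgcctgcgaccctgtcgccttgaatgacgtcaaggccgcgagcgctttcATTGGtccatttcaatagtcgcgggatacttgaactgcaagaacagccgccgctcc
TOP2A held TTTGAA in 2 places, on opposite strands, and CCAAT in 4 places. HMMR held 2 neighbouring copies of TTTGAA, 28 and 22 bases ahead of its start, and CCAAT in 5 places, and CCNA2 held a reversed CCAAT 56 bases ahead of its start and no TTTGAA. Among the 27 members with a promoter in the table, 13 (48.1%) held TTTGAA and 22 (81.5%) held CCAAT, beside 13.6% and 33% of all genes. A match describes the letters of these windows and shows no site in use, and a window without TTTGAA can hold another form of the region.

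TOP2A was at 8.74, 9.04, 9.15, 9.02 and 8.80 in D 30, against 9.34, 9.26, 9.61, 9.68, 10.00, 9.75, 8.95 and 9.27 in control, where only control 7 lay within the D 30 range. Array by array, the 33 genes of G2 and M phase averaged 7.97, 8.06, 8.15, 8.08 and 8.02 in D 30, against 8.26, 8.27, 8.45, 8.53, 8.61, 8.28, 8.04 and 7.87 in control. The 5 D 30 arrays lay close together, while the controls spread widely: controls 1 to 6 were above every D 30 array, control 7 lay within the D 30 range and control 8 below it. Without control 8 the median change was -0.30 with 18 members lower at an unadjusted p under 0.05, and without control 5 it was -0.18 with 4. That count was also 4 without D 30 replicate 1 or 5 or control 4, and 3 without control 3, but 14 without the 9 arrays that stand apart and 14 with blocks of 12 arrays in accession order. In the other doses the means were 8.07 to 8.20 for D 0.3 and 8.03 to 8.37 for D 3. The direct comparison of D 30 with D 3, which uses no control, had 33 of 33 members lower and a median of -0.16, with 0 past the threshold. D 30 against D 0.3 had 23 of 33 lower and a median of -0.07.

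**Figure D3:**
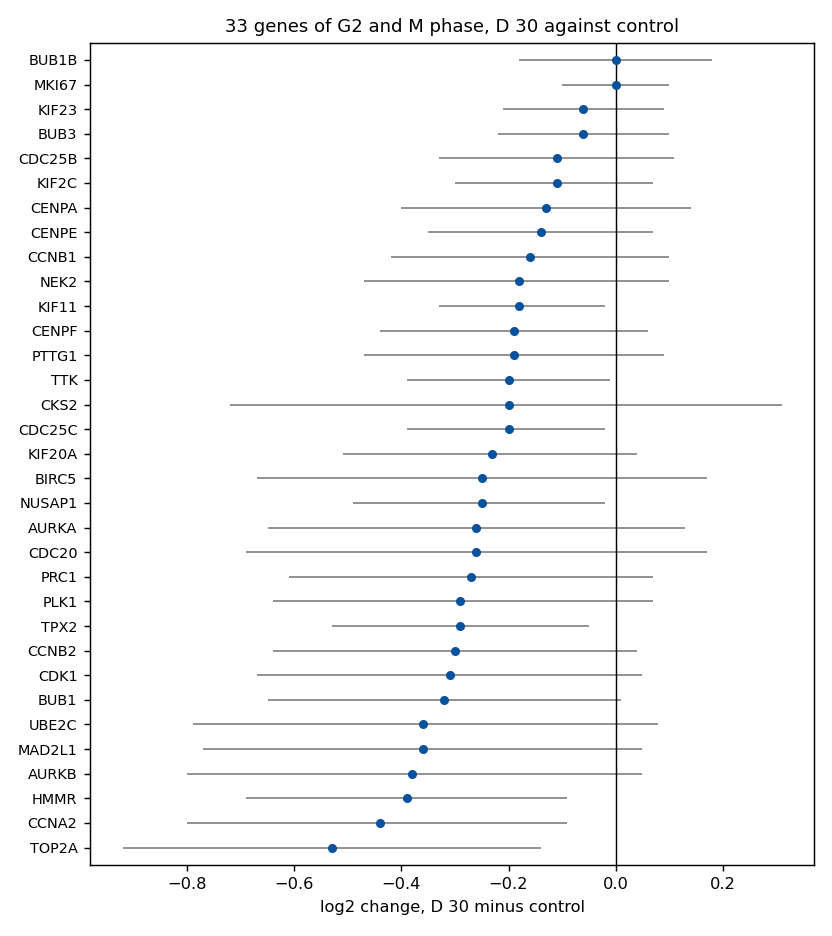
Log2 change in D 30 minus control of the 33 measured genes of G2 and M phase, with 95% intervals of the limma fit (5 arrays against 8), sorted from highest to lowest. Of the points 32 lie below 0, from -0.53 for TOP2A upwards, none passed after adjustment, and MKI67 and BUB1B lie at 0.00.

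No measured gene of the responses to reactive oxygen, metals and damaged protein passed in D 30 against control, where 0.015% of all genes did. HMOX1, the heme oxygenase that NRF2 induces, was at 7.71 to 8.01 in D 30 and 7.72 to 8.06 in control, a change of 0.00 ± 0.12. NQO1, a quinone reductase, changed by 0.06 ± 0.11, the glutathione synthesis gene GCLM by 0.00 ± 0.12 and the thioredoxin reductase gene TXNRD1 by 0.02 ± 0.13. Of 21 measured NRF2 targets 0 passed and the median change was -0.02, and for 20 of them the 95% interval lay within 1.5-fold either way. Of these targets ME1 and AKR1C1 lay below the median level of all genes of 6.71, and BLVRB was at 6.67 in D 30 and 6.72 in control. How far probes at such levels can show a change was not tested, so a narrow interval there does not show that a gene stayed unchanged. The metallothionein genes MT2A and MT1X, which bind metal ions, changed by -0.10 ± 0.17 and 0.16 ± 0.22, and the 9 measured members of the family averaged 9.11 to 9.17 on D 30 arrays, against 8.80 to 9.41 on control arrays. MT1B, MT1M and MT3 among the 9 were at 6.51 to 6.58 in both groups, below the median level of all genes. Of 20 antioxidant enzymes CAT, the catalase gene, had the smallest p (-0.28 ± 0.10, adjusted p = 0.511), and the median was 0.00. The 19 cytosolic heat shock proteins ran from -0.35 for HSPA4 to 0.29 for BAG3, with a median of -0.03. The heat shock gene HSPA1A changed by 0.03 ± 0.20, the ER chaperone gene HSPA5 by 0.07 ± 0.11, and the stress factors DDIT3 and ATF3 by 0.10 ± 0.13 and 0.06 ± 0.18. The iron storage gene FTL changed by 0.04 ± 0.05 and the transferrin receptor gene TFRC by -0.04 ± 0.21. All of these but CAT had an adjusted p of 1, and HMOX1, GCLM, TXNRD1, MT1X, HSPA1A, ATF3 and TFRC changed sign in at least 1 alternative setting.

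CXCL8, a chemokine gene of NF-kB, was at 8.64, 8.56, 8.17, 8.58 and 8.75 in D 30, against 8.11, 7.81, 8.49, 8.38, 8.90, 7.44, 7.40 and 8.07 in control. The controls spread over more than the D 30 arrays and covered all of them, and the change of 0.46 ± 0.17 did not pass (adjusted p = 0.583). IL6 lay at 6.57 to 6.63 in D 30 and 6.57 to 6.66 in control, below the median of all genes. The cell cycle inhibitor gene CDKN1A, a p53 target, changed by 0.25 ± 0.14 (adjusted p = 1), with a median of 0.02 over 21 p53 targets. IER3 and DDIT4, early response genes, changed by 0.42 ± 0.15 and 0.37 ± 0.15 (adjusted p = 0.492 and 0.775), and at the lower doses, with the same controls, IER3 changed by 0.61 and 0.55 and DDIT4 by 0.47 and 0.44 at 0.3 and 3 µg/mL.

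**Figure D4:**
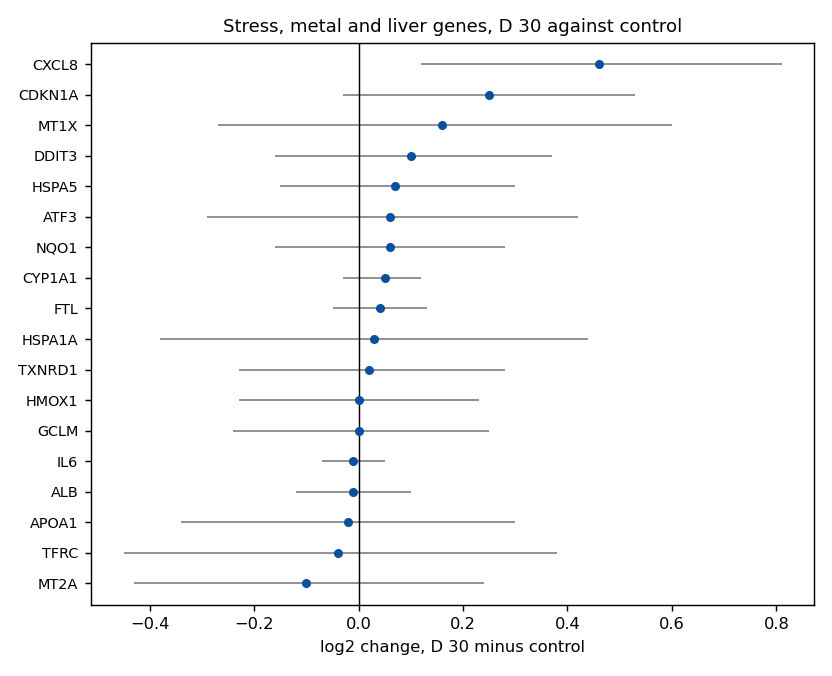
Log2 change in D 30 minus control of 18 stress, metal, inflammatory and liver genes, with 95% intervals of the limma fit (5 arrays against 8), sorted from highest to lowest. HMOX1, GCLM and IL6 lie at -0.01 to 0.00 and CXCL8 is highest at 0.46, and none passed after adjustment.

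The routes by which particles are taken up and stored showed no member past the threshold either, beside 0.015% of all genes. The 34 measured genes of the lysosome and its proton pump had a median change of 0.06, with LAMP1, a lysosomal membrane protein gene, at 0.13 ± 0.08 (adjusted p = 1). Their mean level was 9.45 to 9.54 in D 30, against 9.39 to 9.53 in control, and the groups overlapped. The 27 genes of endocytosis had a median of -0.01 and the 26 of autophagy a median of 0.02. Of 10 measured hepatocyte products 9 were below 0 and 0 passed, with a median of -0.05 and a range of -0.20 to 0.19. ALB was at 13.97 to 14.06 in D 30 and 13.93 to 14.14 in control (-0.01 ± 0.06), the iron carrier gene TF changed by -0.14 ± 0.09 and APOA1 by -0.02 ± 0.16. APOC3, an apolipoprotein gene, changed by -0.41 ± 0.19 (adjusted p = 0.994) and the complement gene C3 by -0.32 ± 0.16 (adjusted p = 1). The largest change of a list member was that of HSD17B7 of sterol synthesis (0.62 ± 0.18, adjusted p = 0.209). Other members that did not pass were the p53 target ZMAT3 (0.50 ± 0.24, adjusted p = 1), the tRNA synthetase gene FARSB (0.45 ± 0.13, 0.186), RN7SL1, the RNA of the signal recognition particle (0.38 ± 0.11, 0.256), and the tropomyosin gene TPM2 (0.36 ± 0.10, 0.206). For ZMAT3, 2 further probes at levels of 9.22 and 9.43 changed by -0.03 ± 0.15 and -0.06 ± 0.14. A dim second probe of FARSB changed by -0.02 ± 0.03, and dimmer probes of TPM2 by 0.16 ± 0.08 and -0.02 ± 0.03. For 19614 of the 20046 genes (97.8%) the 95% interval of the change lay within 1.5-fold either way, and for genes at or above the median level for 95.7%.

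Between doses of D little passed. D 30 against D 0.3 gave 0 genes (0%), with 1314 at an unadjusted p under 0.05. A count of 1, 2 or 5 genes came without D 0.3 replicate 2, D 30 replicate 5 or D 0.3 replicate 1. A fit on the arrays of the 2 groups alone called 364 genes. The smallest p belonged to GSX2 (-0.17 ± 0.04, adjusted p = 0.0667), TYW5 (-0.19 ± 0.04, 0.0669) and RNU4-2, a small RNA of the spliceosome (-0.64 ± 0.14, 0.0669). RNU4-2 was at 7.02 to 7.13 in D 30 and 7.15 to 7.99 in D 0.3. D 30 against D 3 gave 1 gene (0.00499%), NBPF9, of a family of near-identical copies, which rose by 1.5 ± 0.28 (adjusted p = 0.0148). It was at 10.34, 10.42, 10.07, 9.73 and 10.19 in D 30, against 8.56, 8.37, 8.19, 7.94 and 10.18 in D 3. D 3 replicate 5 thus lay within the D 30 range, and the controls ran from 8.54 to 10.42, so D 30 was within the controls and D 3 mostly below them. No gene passed there without D 30 replicate 1, 2 or 5 or without D 3 replicate 1, 2, 3 or 4, and 8 passed without D 3 replicate 5.

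Against the same controls, D 3 had 1 gene past the threshold (0.00499%), ODAM (0.48 ± 0.09, adjusted p = 0.0117), and D 0.3 had 4 (0.02%), among them ODAM (0.52 ± 0.10, 0.012), the mitochondrial ribosomal protein gene MRPL41 (0.53 ± 0.11, 0.0497) and the protease gene TMPRSS3 (0.27 ± 0.05, 0.0389). These small counts moved with single arrays. For D 3 the count was 0 without D 3 replicate 3 or 4 or control 3, 2 without control 2, 3 without control 4 and 4 without D 3 replicate 5. For D 0.3 it was 23 without control 2, 8 without D 0.3 replicate 1, 2 without control 7, 1 without control 1, 6 or 8 and 0 without control 3 or D 0.3 replicate 3 or 4.

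Set against C 30, the cerium dioxide material C at the same dose, D 30 differed in 29 genes (0.145%), 22 higher and 7 lower, with no control array involved. AKAP17A, a splicing regulator gene, was at 9.52, 9.39, 9.29, 9.31 and 9.19 in D 30, against 8.72, 8.73, 8.76, 8.72 and 8.62 in C 30. The groups were far apart (0.63 ± 0.07, adjusted p = 6.75e-09), and the call held in 23 of 23 settings. The controls spanned 8.75 to 9.39, so D 30 lay at and above their upper part and C 30 at and below their lower end. DDIT4, an inhibitor of mTOR signalling, was at 10.46 to 10.63 in D 30 and at 10.15, 10.23, 10.10, 10.16 and 8.10 in C 30 (0.79 ± 0.17, adjusted p = 0.0133). C 30 replicate 5 was far below the others, and without it the change was 0.37 and did not pass. IER3 was at 11.45 to 11.71 in D 30 and 10.28 to 11.14 in C 30 (0.76 ± 0.17, adjusted p = 0.0201), a call that was lost without C 30 replicate 4 or 5 or D 30 replicate 3.

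On the lower side RNU4-2 was at 7.12, 7.06, 7.02, 7.02 and 7.13 in D 30, against 7.65, 7.78, 8.22, 7.73 and 7.63 in C 30 (-0.73 ± 0.13, adjusted p = 0.000553). The controls spanned 6.91 to 7.78 and overlapped with both materials. SGK1 was at 8.60 to 8.96 in D 30 and 9.19 to 9.87 in C 30 (-0.66 ± 0.16, adjusted p = 0.0408), and the myelin protein gene PLLP at 9.11 to 9.52 in D 30 and 9.63 to 10.08 in C 30 (-0.48 ± 0.11, 0.0418). The call of SGK1 was lost without D 30 replicate 1, 2, 3 or 5 or C 30 replicate 4 or 5, and that of PLLP without D 30 replicate 1, 2, 3 or 4 or C 30 replicate 2, 4 or 5. The count of genes was 9, 12 and 16 without C 30 replicate 5, 4 and 2, 49 without C 30 replicate 1, and 17, 18 and 19 without D 30 replicate 2, 1 and 4. The list of G2 and M phase had a median of -0.23 in D 30 against C 30, with 30 of 33 members lower and 0 past the threshold, and its array means were 7.97 to 8.15 in D 30 and 8.17 to 8.47 in C 30. The metallothioneins had a median of -0.14, 9 of 9 lower and 0 past the threshold.

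**Figure D5:**
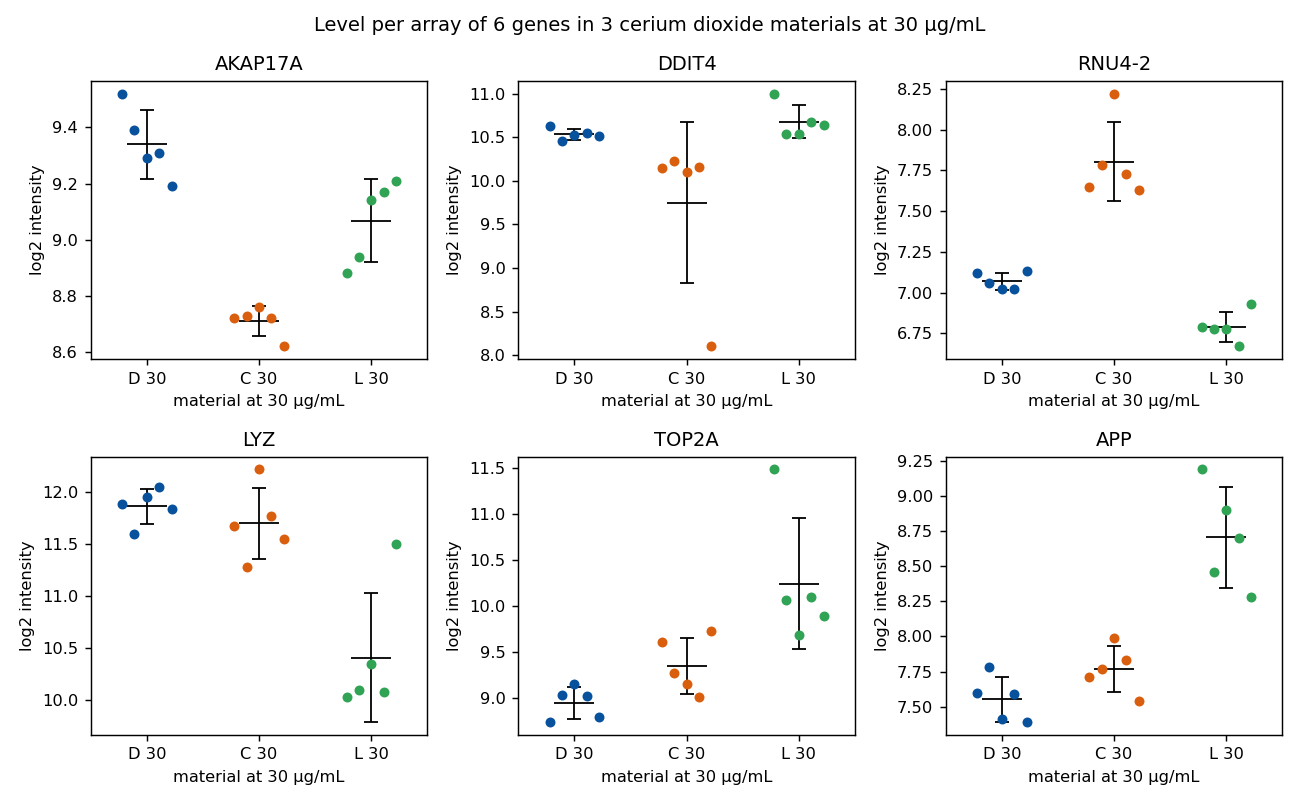
Log2 intensity per array of AKAP17A, DDIT4, RNU4-2, LYZ, TOP2A and APP in 3 cerium dioxide materials at 30 µg/mL, D, C and L, with 5 arrays each; points are arrays, the black line is the mean, the bars are ± 1 SD, and each panel has its own log2 axis. AKAP17A lay at 9.19 to 9.52 in D 30 and 8.62 to 8.76 in C 30, and TOP2A at 8.74 to 9.15 in D 30 and 9.69 to 11.49 in L 30.

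Set against L 30, D 30 differed in 1266 genes (6.32%), 399 higher and 867 lower, again with no control array involved. L 30 replicate 1 is an array that stands apart, and without it 213 genes were higher and 383 lower, 522 of them among the 1266. Without all 9 arrays that stand apart, L 30 replicate 1 included, 621 were higher and 1123 lower, 998 of them among the 1266. On the second principal component L 30 replicates 2 to 4 lay at 10.47 to 15.12, with control 8, and L 30 replicate 5 at -8.65, with the other controls, while D 30 lay at -5.54 to -1.99. What this component stands for and its part in the difference were not tested. In the fit on the 10 arrays of both groups alone 192 genes passed.

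LYZ, the lysozyme gene, was at 11.89, 11.60, 11.95, 12.05 and 11.84 in D 30, against 10.03, 10.10, 10.35, 10.08 and 11.50 in L 30 (1.46 ± 0.27, adjusted p = 0.000141). L 30 replicate 5 lay near the D 30 arrays and the other 4 far below. SNORD13, a small nucleolar RNA, was at 9.30 to 10.19 in D 30 and 7.85 to 9.55 in L 30 (1.39 ± 0.32, adjusted p = 0.00257). MCMDC2 was higher by 1.38 ± 0.39 (adjusted p = 0.018), a call lost without L 30 replicate 1, where the change was 0.92, and without D 30 replicate 5. It passed without all 9 arrays that stand apart (0.92, adjusted p = 0.028). TOP2A was at 8.74, 9.04, 9.15, 9.02 and 8.80 in D 30, against 11.49, 10.07, 9.69, 10.10 and 9.89 in L 30 (-1.30 ± 0.22, adjusted p = 2.9e-05). The groups did not overlap, and without L 30 replicate 1 the change was -0.99 ± 0.21 (adjusted p = 0.00317). PRRC2A was lower by 1.2 ± 0.24 on the log2 scale and APP, the amyloid precursor gene, by 1.16 ± 0.24 (adjusted p = 0.00044 and 0.000828), with changes of -0.86 and -1.03 without L 30 replicate 1. For PRRC2A, L 30 replicate 5 was at 8.31, next to the D 30 arrays at 8.16 to 8.24. Against control, all arrays included, LYZ changed by 0.07 in D 30 and -1.38 in L 30, and SNORD13 by -0.24 and -1.64. In the same order MCMDC2 changed by 0.86 and -0.52 and TOP2A by -0.53 and 0.76. PRRC2A changed by -0.07 and 1.13, and APP by -0.34 and 0.81.

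By lists, D 30 against L 30 was lowest in G2 and M phase, with all 33 members below 0 and a median of -0.43. Here rose and fell mean higher and lower in D 30 than in L 30. Beside 6.32% of all genes past the threshold, 399 higher and 867 lower, 10 of the 33 fell and 0 rose. They were TOP2A, the kinase AURKA (-0.96 ± 0.22), KIF20A (-0.75 ± 0.16), TPX2 (-0.74 ± 0.13), CENPF (-0.69 ± 0.14), CCNA2 (-0.68 ± 0.20), CDC25B (-0.64 ± 0.12), PRC1 (-0.62 ± 0.19), KIF11 (-0.30 ± 0.09) and MKI67 (-0.20 ± 0.06), with adjusted p of 2.9e-05 to 0.0279. Without L 30 replicate 1 the median was -0.39 and 7 fell, 6 of these 10 and BUB1. In that fit 383 of all 20046 genes were lower and 213 higher, to be read beside each list count without that array. The calls of CCNA2 (adjusted p = 0.114), PRC1 (0.153), KIF11 (0.0655) and MKI67 (0.181) were lost without that array. Without all 9 arrays that stand apart KIF11 passed (0.0296), while CCNA2 (0.0742), PRC1 (0.0846) and MKI67 (0.0951) did not. All 5 L 30 arrays, replicate 5 included, had a mean of the 33 genes of 8.31 to 8.61, above the 7.97 to 8.15 of D 30. Of 28 genes of the nuclear pore 7 fell and 0 rose, led by NUP210 (-0.56 ± 0.14) and NUP188 (-0.52 ± 0.11), and 3 fell without L 30 replicate 1. Of 49 small nucleolar and nuclear RNAs 6 rose and 0 fell, among them SNORD13, RN7SK, an RNA that holds back transcription elongation (0.62 ± 0.10), and SNORA61 (0.51 ± 0.12), and 5 rose without L 30 replicate 1. Of 27 genes of endocytosis 4 fell, which were RAB5C (-0.80 ± 0.17), the clathrin adaptor genes AP2B1 (-0.65 ± 0.14) and AP2M1 (-0.40 ± 0.11), and the receptor gene LRP1 (-0.62 ± 0.13), and 3 fell without L 30 replicate 1. Among 9 metallothioneins MT1X (0.75 ± 0.24, adjusted p = 0.0445) and MT1F (0.57 ± 0.19, 0.0487) were higher in D 30 than in L 30. Without L 30 replicate 1 this held for 1 member. Against control MT1X changed by 0.16 in D 30 and by -0.59 in L 30.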

How the data were processed

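RNA of the HepG2 flasks was hybridised to bead arrays (Illumina HT-12 v4). The submitters' processing notes name R 2.14.0 and beadarray 2.4.1. The intensity values are those the authors deposited, on a linear scale, with the same median of 98.4 on all 120 arrays. Neither the normalization nor any background subtraction by the authors is stated in the labels, and detection p-values were not used. From the deposited intensity values log2 was taken with no further normalization. Groups came from the labels, 1 array without a group was left out, and 119 arrays in 25 groups entered 1 limma fit (limma 3.58.1, R 4.3.3, eBayes, Benjamini-Hochberg over 20046 genes, threshold 0.05). Of 48107 probes 30113 carry 1 gene symbol, 8 several and 17986 none. The brightest probe stands for each of the 6691 genes with several. The prior added 2.15 degrees of freedom to give 96.2, so the spread comes mostly from all 119 arrays. Tables and figures were made with Python 3.11.15, pandas 2.3.3 and matplotlib 3.10.9.

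The steps were tested on simulated data. Named genes are all that passed against control, filled up to 10 on each side by smallest p, the 8 of smallest p, the member of smallest p in each list and a fixed set of stress and liver genes, and in other comparisons the 3 largest on each side with every array beyond the other group's mean (or the 3 of smallest p where none passed). Further genes were named after their values were seen. The members, lists and tests were chosen with earlier results of these data known. Whether replicate numbers pair the samples was checked by the correlation of deviations from group means. For D 30 and control it was 0.03, 0.033, -0.341, 0.161 and 0.04. With D 0.3 it was -0.029 to 0.106, with D 3 -0.218 to 0.16, with C 30 -0.095 to 0.175 and with L 30 -0.255 to 0.173. The numbers were therefore not taken as pairs, and the lower doses with control were not checked. The p-values measure the spread between flasks of 1 line. Alternatives changed the choice of probe, the scaling, the prior, the filter on dim genes, the arrays in the fit and the block.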

Additional observations from a re-analysis of the deposited data

Results flagged for a closer look

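Of 170 groups of arrays tested over the named genes, 15 held an array far from the rest, where chance gives about 1 in 20. On the low side of D 30 these were ADH6 in replicate 5 at 7.58 (next 7.75), GNG11 in replicate 4 at 5.71 (6.48), PPP2R1B in replicate 5 at 6.86 (7.06), KCND2 in replicate 5 at 5.71 (6.36), FARSB in replicate 3 at 12.79 (13.05), SAA4 in replicate 4 at 10.27 (10.54), ATP5MC2 in replicate 1 at 10.64 (10.94), RPL4 in replicate 5 at 12.05 (12.32) and TXNRD1 in replicate 5 at 8.26 (8.61). On its high side they were IER3 in replicate 3 at 11.71 (11.49) and NAT2 in replicate 1 at 6.71 (6.58). Among controls they were CLDN1 in control 2 at 10.46 (10.96), H2AZ2 in control 1 at 7.07 (6.92), NUP50 in control 8 at 7.21 (7.56) and APOA1 in control 3 at 13.01 (13.39).

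Differences between D 30 and another exposed group passed limma's test of that difference for 13 named genes. These genes were named from those that passed, so the count tests nothing. Against D 3 it was NBPF9 (1.5). Against C 30 they were DDIT4 (0.79), IER3 (0.76), AKAP17A (0.63), RNU4-2 (-0.73), SGK1 (-0.66) and PLLP (-0.48). Against L 30 they were LYZ (1.46), SNORD13 (1.39), MCMDC2 (1.38), TOP2A (-1.30), PRRC2A (-1.2) and APP (-1.16).

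In a fit of all 48107 probes 13 rose and 1 fell in D 30 against control, and among the 17994 probes without a single gene symbol, which the gene comparisons do not use, 6 rose and 0 fell. They were ILMN_1671318 (0.30), ILMN_2414436 (0.43), ILMN_3239343 (0.64), ILMN_3301585 (0.43), ILMN_1686662 (0.23) and ILMN_1791375 (0.57), with adjusted p of 0.00705 to 0.0464, and all 5 D 30 arrays lay above the control mean for each.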

How the results depend on the processing

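Of 2664 values of named genes over all settings 2404 kept direction and side of the threshold, 122 lost the threshold, 95 gained it and 43, of 11 genes that did not pass against control, changed sign, to at most 0.059 in size. These were CD68 (0.026) and TXNRD1 (-0.059) with the mean of probes, HMOX1 (-0.008) and GCLM (-0.005) after cyclic loess, HMOX1 (-0.011) and TXNRD1 (-0.019) with blocks of 12, and HMOX1 (-0.024), GCLM (-0.016) and TFRC (0.023) without the 9 arrays and control 8. With the replicate block they were GCLM (-0.039), MT1X (-0.005), ATF3 (-0.033), APOA1 (0.008) and IL6 (0.002). Leaving out 1 array at a time gave -0.026 to 0.050 for HMOX1, -0.017 to 0.038 for GCLM, -0.028 to 0.107 for TXNRD1, -0.038 to 0.122 for HSPA1A, -0.079 to 0.027 for TFRC, -0.027 to 0.003 for ALB, -0.082 to 0.005 for APOA1 and -0.015 to 0.002 for IL6. Counts of genes moved more. For D 30 against control, 3 in all, the count was 9 with the mean of a gene's probes, 5 with every probe on its own, 5 with genes under the median level left out, 5 with 50 added before log2, 8 with blocks of 12 arrays in accession order, 0 in the test against a change of 1.2-fold and 87 without the 9 arrays that stand apart. For D 30 against D 0.3, 0 in all, it was 3 with 50 added, 2 with a trended robust prior, 8 without the 9 arrays and 364 on the arrays of both groups alone. For D 30 against D 3, 1 in all, it was 0 with the mean of probes, 4 without dim genes, 0 in the 1.2-fold test, 14 without the 9 arrays and 0 on the arrays of both groups. For D 3 against control, 1 in all, it was 0 with blocks of 12, 0 in the 1.2-fold test, 8 without the 9 arrays and 0 on the arrays of both groups. For D 0.3 against control, 4 in all, it was 1 with the mean of probes, 1 with every probe, 2 after cyclic loess, 1 with the trended prior, 0 with blocks of 12, 0 in the 1.2-fold test, 32 without the 9 arrays and 0 on the arrays of both groups. For D 30 against C 30, 29 in all, it was 45 without dim genes, 68 with blocks of 12, 1 in the 1.2-fold test, 226 without the 9 arrays and 169 on the arrays of both groups. For D 30 against L 30, 1266 in all, it was 14 in the 1.2-fold test, 1744 without the 9 arrays and 192 on the arrays of both groups. The causes were not tested.

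A pair of settings was chosen after seeing the data. With D, C, L and controls alone and without arrays that stand apart, D 30 gave 153 genes against control, 11 against D 0.3, 5 against D 3 and 194 against C 30, and D 3 gave 5 against control. Without the 9 arrays and control 8 these counts were 138, 8, 14, 239 and 6, and D 0.3 gave 20 against control. With the replicate block the count was 0 for D 30 against control, 664 against D 0.3 and 0 against D 3. It was 254 against C 30 and 0 against L 30, and 0 for D 3 and for D 0.3 against control. The numbers were not taken as pairs, so the block is not read as a paired analysis. With it 33 of 33 genes of G2 and M phase were below 0 in D 30 against control, 29 of them at an unadjusted p under 0.05, with a median of -0.37. Controls 6 to 8 share a number with no D 30 array, so this fit compares D 30 with controls 1 to 5 only. It thus leaves aside the 2 controls with the lowest means of these genes, at 8.04 and 7.87. Of the 33 genes 31 to 33 were below 0 over all settings that measured 33. Leaving out 1 array at a time gave 1 to 30 genes for D 30 against control, 0 to 5 against D 0.3, 0 to 8 against D 3, 9 to 49 against C 30 and 596 to 1701 against L 30, and 0 to 4 for D 3 and 0 to 23 for D 0.3 against control. Signal over background could not be read from the deposited values, and how it limits low genes was not tested.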
